A study of Mus musculus with 8 samples.

Results

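The genes described here are 9 transcription factors that build and maintain the cardiac chambers, Gata4, Gata6, Nkx2-5, Tbx5, Tbx20, Hand1, Hand2, Irx4 and Nr2f2. They were chosen by name, as a list, and all 9 were found among the 55487 gene identifiers counted in each library. Left ventricles of 8 C57BL/6 mice were sequenced at 12 weeks of age. The KO group held 4 animals in which ADGRF5, also called GPR116, an adhesion G protein-coupled receptor, is absent from cardiac myocytes (genotype label GPR116-/-, myocyte-specific). The control group, titled NLC, held 4 animals with the genotype label wild-type. Each group had 2 males (replicates 1 and 2) and 2 females (replicates 3 and 4). The sources used here do not name the promoter that drives the deletion, nor say whether the controls carry a Cre or floxed allele.

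These factors act as a network. Gata4, Nkx2-5 and Tbx5 bind many cardiac enhancers together and activate contractile, conduction and natriuretic peptide genes, and Tbx20 and the Hand proteins act on the same program during chamber growth. Irx4 is known as a ventricular factor, whereas Nr2f2 (COUP-TFII) is known for atrial identity and is also made in veins and lymphatic vessels. In the mouse embryo Hand1 marks the outer wall of the left ventricle and Hand2 is strongest in the right ventricle.

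The libraries held 26.59 to 39.62 M gene reads in KO and 25.33 to 28.35 M in NLC. Cardiomyocyte markers (8 of 8 measured, among them Myh6, Tnnt2 and Ryr2) summed to 57700 to 69420 CPM (the count scaled to library size) in KO and 54530 to 65830 CPM in NLC. The ventricular light chain gene Myl2 averaged 7460 ± 754 CPM in KO and 7080 ± 1080 CPM in NLC (SD, n = 4 each), so defining markers of the labelled tissue were present. Adgrf5 itself stood at 203 to 239.8 CPM in KO and 218.2 to 257 CPM in NLC. Endothelial cells also transcribe it, so these values are no check of the genotype. In such bulk tissue, fewer cells of a type and less RNA per cell cannot be told apart.

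Promoter sequence was available from RefSeq (GRCm38.p6) for 5 of the 9 genes, each as a window of 250 bases before to 50 bases after the start. The windows of Nkx2-5 (chr17:26841516-26841815, minus strand) and Irx4 (chr13:73260247-73260546, plus strand) are shown because these genes gave the smallest p-values between KO and NLC. The window of Hand2 (chr8:57320733-57321032, plus strand) is shown because it alone among the 5 held motifs of the other factors. Capitals mark matches on either strand to 6 motifs. Zinc finger factors of the Gata4 kind bind AGATAA, and also the sequence written TGATAA. The motif of Nkx2-5 relatives was searched as CAAGTG, and that of T-box factors as AGGTGT. The E-box, bound by basic helix-loop-helix proteins such as the Hand factors, was searched as CATCTG, and the TATA box as TATAAA.
Hand2: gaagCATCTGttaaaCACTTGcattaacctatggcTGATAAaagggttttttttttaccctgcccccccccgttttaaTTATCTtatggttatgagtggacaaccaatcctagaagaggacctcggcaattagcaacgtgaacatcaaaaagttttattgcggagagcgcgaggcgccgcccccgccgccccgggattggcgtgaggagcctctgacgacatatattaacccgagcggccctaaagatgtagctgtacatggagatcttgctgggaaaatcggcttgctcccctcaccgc
Nkx2-5: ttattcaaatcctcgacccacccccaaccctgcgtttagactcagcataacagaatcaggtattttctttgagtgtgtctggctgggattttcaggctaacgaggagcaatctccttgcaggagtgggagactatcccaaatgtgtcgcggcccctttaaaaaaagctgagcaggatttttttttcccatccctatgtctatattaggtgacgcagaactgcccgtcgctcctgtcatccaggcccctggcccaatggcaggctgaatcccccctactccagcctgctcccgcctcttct
Irx4: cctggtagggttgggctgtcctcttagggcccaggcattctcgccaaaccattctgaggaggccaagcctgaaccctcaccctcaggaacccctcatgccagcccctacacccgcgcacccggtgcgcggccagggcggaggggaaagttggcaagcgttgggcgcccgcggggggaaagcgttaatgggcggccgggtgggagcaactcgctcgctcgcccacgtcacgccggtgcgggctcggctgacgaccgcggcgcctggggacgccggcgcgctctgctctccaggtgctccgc
The Hand2 window held 4 matches that did not overlap: the E-box motif and the second zinc finger motif as written, and the Nkx2-5 motif and the first zinc finger motif on the opposite strand. Of 32841 such windows in the mouse genome, 11.2% held the first zinc finger motif, 9.05% the second, 13.6% the Nkx2-5 motif, 13.7% the T-box motif, 17.2% the E-box motif and 13.6% the TATA motif. The windows of Nkx2-5, Irx4, Tbx20 and Nr2f2 held 0 matches, which says only that these letters are not there. The GC content was 50.3% for Hand2, 51.7% for Nkx2-5 and 70.7% for Irx4, beside a median of 52.7% over all windows. The Nkx2-5 window lies inside the span that GENCODE gives the gene, which begins farther upstream at 26845009.

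In the adult left ventricle 8 of the 9 genes had reads in every library, whereas Hand1 had 6 reads in all and no more than 3 in any library. Levels were compared between genes as RPKM, the CPM divided by the length of the gene's merged exons in kilobases. Nkx2-5, the cardiac homeobox factor, had the highest mean over the 8 libraries at 53.1 ± 12.6 RPKM, above 96.4% of the 17354 protein-coding genes with any read. It was followed by Gata4 (24.8 ± 1.94 RPKM), Hand2 (23.2 ± 2.7 RPKM) and Irx4 (17.1 ± 1.61 RPKM, SD, n = 8 each). The middle of the order held Gata6 at 8.59 ± 0.927, Tbx5 at 6.61 ± 3 and Tbx20 at 3.82 ± 0.463 RPKM. Nr2f2 was the lowest of the 8 at 1.38 ± 0.299 RPKM, above 45.8% of coding genes, and still the lowest at 2.82 RPKM per length of its longest coding transcript.

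**Figure D1:**
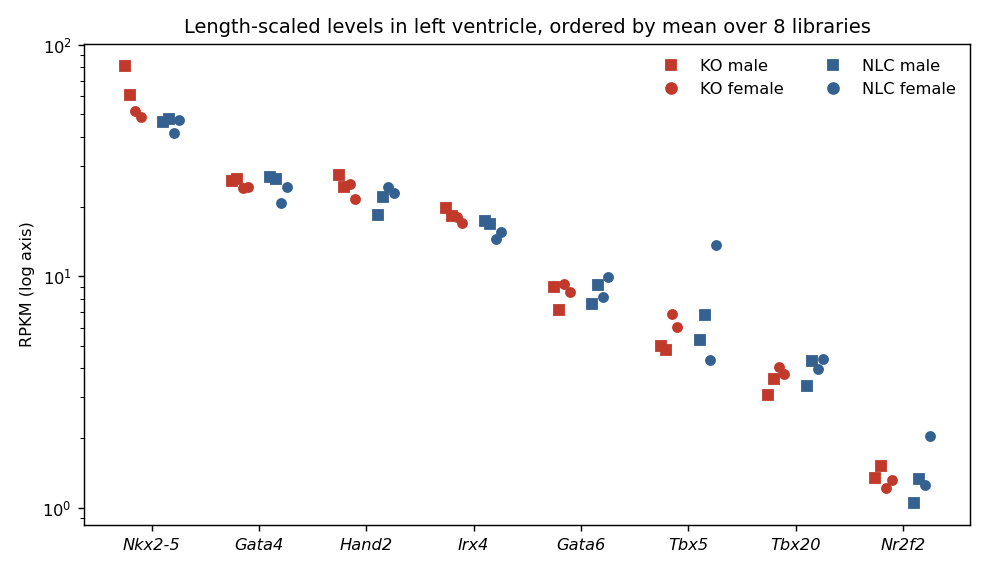
RPKM on a log axis for 8 factors, ordered by their mean, with a point for each of the 4 KO libraries (left, red) and 4 NLC libraries (right, blue), squares for males and circles for females. Hand1 is not drawn because 4 libraries had no read. NLC replicate 4 is the highest library for Tbx5 (13.68 RPKM), Nr2f2 (2.045 RPKM), Gata6 (9.947 RPKM) and Tbx20 (4.41 RPKM).

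Neighbours in this order were compared within each library. Nkx2-5 exceeded Gata4 in 8 of 8 libraries (RPKM ratio 1.73 to 3.14). Gata4 and Hand2 were not separated, with Gata4 higher in 5 of 8 libraries (ratio 0.853 to 1.46). Hand2 lay above Irx4 in 8 of 8 (ratio 1.06 to 1.69) and Irx4 above Gata6 in 8 of 8 (1.56 to 2.54). Gata6 exceeded Tbx5 in 7 libraries, and in NLC replicate 4 the order turned (ratio 0.727). The place of Gata6 depended on the gene model: its merged exons span 6508 bases and its longest coding transcript 3234, and per length of the latter it averaged 17.3 RPKM, beside 17.2 for Irx4.

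The GATA pair kept a similar proportion in the groups. Gata4 was 2.61 to 3.67 times Gata6 in KO and 2.45 to 3.53 times Gata6 in NLC on the RPKM scale. Tbx20 was 0.588 to 0.75 times Tbx5 in KO and 0.322 to 0.915 times Tbx5 in NLC, so the T-box ratio varied over a wider range among NLC animals. Leaving Hand1 aside, Nkx2-5 to Gata4 was the ratio whose groups did not overlap, at 2.01 to 3.14 in KO and 1.73 to 1.99 in NLC. It was picked out of 7 such ratios after the values were seen and was not tested.

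Spread between animals differed from gene to gene. Over all 8 libraries the coefficient of variation of the CPM was 7.79% for Gata4 and 9.39% for Irx4, beside a median of 12.8% over all 14695 genes tested. It was 10.8% for Gata6, 11.7% for Hand2 and 12.1% for Tbx20. The wide genes over the pooled libraries were Nr2f2 (21.6%), Nkx2-5 (23.7%) and Tbx5 (45.3%, above 95.6% of the genes tested). A difference between the groups adds to such pooled values. Within KO and within NLC the coefficient was 24.2% and 6.41% for Nkx2-5, 17.1% and 55.9% for Tbx5, and 9.32% and 30.7% for Nr2f2. Nkx2-5 was thus wide among KO animals only. Counting error was at most 2.04% for Gata4 and 6.44% for Nr2f2. These 3 genes were highest in different libraries: NLC replicate 4 was highest for Tbx5 and Nr2f2, and KO replicate 1 for Nkx2-5.

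The main comparison asked whether the ventricular level of these factors changes when myocytes lack ADGRF5. None of the 8 factors tested was called by edgeR's quasi-likelihood test with sex as a term (adjusted p 0.277 to 0.907), where 15 of 14695 genes, or 0.102%, were called. At an unadjusted p under 0.05 there were 2 factors, Nkx2-5 and Irx4, both with a positive log2 fold change, beside 11.9% of all genes tested (5.77% positive and 6.18% negative). DESeq2 and limma voom also called 0 members, where they called 150 and 13 of the 14695 genes. The adjusted p of Nkx2-5 was 0.073 by DESeq2. The median log2 fold change of the 8 was 0 and that of all genes -0.005, with 4 factors positive and 4 negative. Without a filter on low counts edgeR called 2 factors, Nkx2-5 (0.39, adjusted p = 0.00119) and Tbx5 (-0.39, adjusted p = 0.00533). That fit called 621 of the 27953 genes it tested, and the cause of the gain was not tested.

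**Figure D2:**
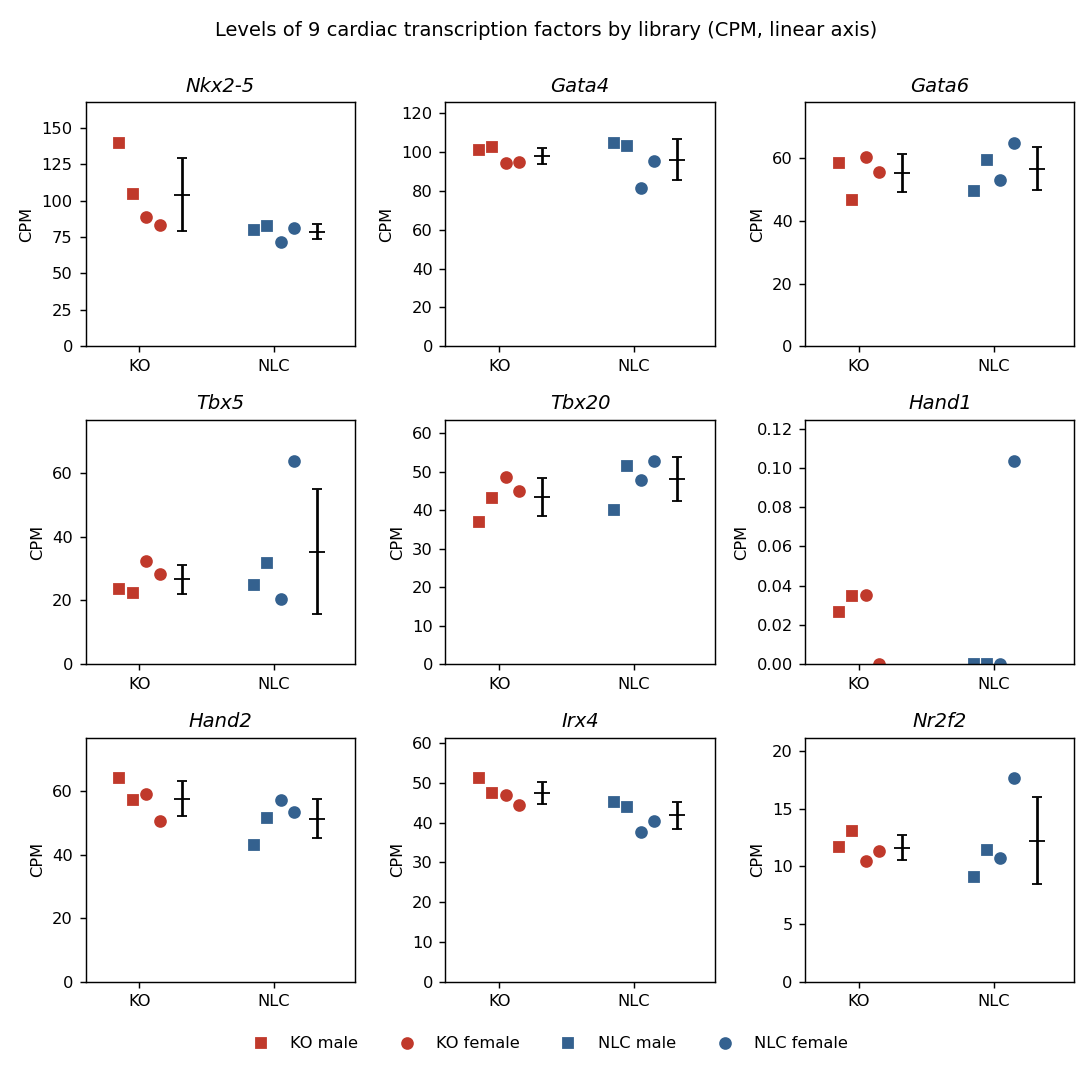
CPM of each factor in each library on linear axes from 0, with KO left (red) and NLC right (blue), males as squares and females as circles. Black bars are the mean ± SD of 4 animals (not drawn for Hand1); Nkx2-5 is the factor whose 4 KO points all lie above the 4 NLC points.

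Nkx2-5 (ENSMUSG00000015579, chromosome 17, 26838664 to 26845009 of GRCm38) starts the cardiac program and in the adult supports conduction and contractile genes. It stood at 139.4, 104.4, 88.97 and 83.53 CPM in KO replicates 1 to 4 and at 79.46, 82.52, 71.28 and 81.13 CPM in NLC replicates 1 to 4. The groups did not overlap, but KO replicate 4 exceeded NLC replicate 2 by about 1 CPM, and the 2 KO males were the highest of all. The difference on the log2 scale was 0.39 (SE 0.112, adjusted p = 0.277 by edgeR), with a 95% interval of 1.1-fold to 1.55-fold. The exact permutation p (two-sided) was 0.0286, the smallest that 70 assignments allow, with no adjustment over the members. No member passed this test without NLC replicate 2, 3 or 4. Of all genes tested, 6.25% had groups that did not overlap, 3.22% with KO above NLC and 3.03% with KO below. Without KO replicate 1, which is also the deepest library, the log2 fold change was 0.25 (adjusted p = 0.564).

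Irx4 (ENSMUSG00000021604, chromosome 13, 73260479 to 73269608), which holds ventricular identity by repressing atrial genes, stood at 51.15, 47.35, 46.98 and 44.41 CPM in KO and at 45.2, 43.93, 37.62 and 40.46 CPM in NLC. Only KO replicate 4 lay below an NLC library. It differed by 0.19 on the log2 scale (SE 0.0648, adjusted p = 0.35 by edgeR), an interval of 1.03-fold to 1.26-fold, with an exact permutation p of 0.0571. TPM also divides by length and by the library's length-scaled sum, and was an alternative chosen after seeing the data. On that scale the groups did not overlap (42.96 to 45.26 TPM in KO and 37.85 to 41.31 TPM in NLC). The share of all genes without overlap was counted on the CPM scale only (6.25%), where the Irx4 groups overlapped. Limma on log2 of TPM + 0.1 gave 0.14 (adjusted p = 0.364).

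The 2 GATA factors, zinc finger proteins that open cardiac enhancers, had fold changes close to 1. Gata4 (chromosome 14, 63198922 to 63271692) stood at 100.8, 102.3, 94.23 and 94.54 CPM in KO and at 104.5, 102.9, 81.24 and 95.27 CPM in NLC. Its difference was 0.03 (log2 scale, SE 0.068, adjusted p = 0.853 by edgeR), with an interval of 0.921-fold to 1.14-fold. Gata6 (chromosome 18, 11052064 to 11085635), which is also made in vascular smooth muscle, ranged from 46.48 to 60.18 CPM in KO and from 49.33 to 64.73 CPM in NLC. Its log2 fold change was -0.04 (SE 0.0986), with an interval of 0.837-fold to 1.13-fold. The sign of Gata4 turned without NLC replicate 3 (-0.02), and that of Gata6 in several fits (0.01 to 0.02). 

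The Hand proteins are basic helix-loop-helix factors named for heart and neural crest derivatives. Hand2 (chromosome 8, 57320983 to 57324633) stood at 64.11, 57.1, 58.98 and 50.58 CPM in KO and at 43.07, 51.56, 57.35 and 53.6 CPM in NLC. Its groups overlapped, with a log2 difference of 0.17 (SE 0.101, adjusted p = 0.495 by edgeR) and an interval of 0.963-fold to 1.31-fold. Hand1 (chromosome 11, 57828705 to 57832818) had 3 reads over the 4 KO libraries and 3 reads over the 4 NLC libraries. A level of 0 allows up to 0.0793 to 0.122 CPM per library (3 counts, counting error only), so Hand1 did not pass the filter and no fold is given.

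Hand2 shares its start region with Hand2os1, a noncoding RNA on the opposite strand whose exons overlap those of Hand2. Hand2os1 was measured at 38.3 to 53.4 CPM in KO and at 35.2 to 51.9 CPM in NLC. Overlapping opposite-strand RNAs were also annotated at Gata6 (1010001N08Rik, 6.93 to 8.39 CPM in KO and 7.12 to 8.13 CPM in NLC) and at Nr2f2 (B130024G19Rik, 1.06 to 1.69 CPM in KO and 0.897 to 1.45 CPM in NLC). The sources used here do not state the strand setting of the counting, so reads of these 3 factors and of their partners may not be fully separated.

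Tbx5 (chromosome 5, 119832668 to 119885219), a T-box activator needed for the atria, the left ventricle and the conduction system, had the widest spread. It stood at 23.46, 22.38, 32.23 and 28.26 CPM in KO and at 24.89, 31.82, 20.38 and 63.94 CPM in NLC. NLC replicate 4 was 3.14 times NLC replicate 3, and the other 7 libraries lay between 20.38 and 32.23 CPM. Its log2 difference was -0.39 (SE 0.27, adjusted p = 0.543 by edgeR), with an interval of 0.502-fold to 1.15-fold. Without NLC replicate 4 it was 0.03 (adjusted p = 0.957).

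Tbx20 (chromosome 9, 24718138 to 24774303), a T-box factor that keeps adult myocytes contractile, stood at 36.89, 43.06, 48.66 and 45.13 CPM in KO and at 40.14, 51.64, 47.84 and 52.91 CPM in NLC. The groups overlapped, with a log2 difference of -0.15 (SE 0.0931, adjusted p = 0.507 by edgeR) and an interval of 0.78-fold to 1.04-fold. Nr2f2 (chromosome 7, 70351944 to 70366735), the nuclear receptor of atrial and venous cells, stood at 11.64, 13.07, 10.46 and 11.35 CPM in KO and at 9.033, 11.42, 10.76 and 17.64 CPM in NLC. As with Tbx5, NLC replicate 4 stood above the other 7 libraries. Its log2 difference was -0.06 (SE 0.18, adjusted p = 0.907 by edgeR), and 0.17 without that library.

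Because Tbx5 and Nr2f2 are made in the atria, the members were set beside an atrial marker list that holds none of them. Its 9 markers summed to 947.4, 724.2, 1583 and 463.6 CPM in KO and to 493.4, 954.3, 476.8 and 6348 CPM in NLC, with NLC replicate 4 far above the rest. Nppa was the largest part of every sum, at 336 to 1030 CPM in KO and 283 to 3780 CPM in NLC. In KO replicate 1 it held 864 of the 947.4 CPM, so the sums follow Nppa more than the other markers. Between KO and NLC, 0 of the 8 atrial markers tested were called, with a median log2 fold change of -1.2. At an unadjusted p under 0.05, 0 were positive and 3 negative, beside 5.77% and 6.18% of all genes. Sarcolipin (Sln) ranged from 0.0264 to 32.8 CPM in KO and from 0.0337 to 222 CPM in NLC. The atrial light chain gene Myl7 ranged from 0.264 to 183 CPM in KO and from 0.371 to 983 CPM in NLC. Bmp10, a defining marker of the right atrium, was at most 0.0264 CPM in KO and 0.207 CPM in NLC, and at 0 in 3 KO libraries and 1 NLC library. Epicardial markers (6 genes) were also highest in NLC replicate 4, at 35.27 CPM, beside 7.327 to 11.55 CPM in KO and 9.558 to 12.21 CPM in the other NLC libraries.

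Tbx5 followed the atrial marker score, the mean centred log2 CPM of the 8 atrial markers that passed the filter, on the log2 CPM scale. The score was -2.18, -0.71, 1.37 and -0.75 in KO replicates 1 to 4 and 0.14, 1.13, -2.17 and 3.17 in NLC replicates 1 to 4. Over the 8 libraries Pearson's r was 0.90 (exact permutation p = 0.00156, adjusted over the 8 members 0.0125) and Spearman's rho 0.83 (exact permutation p = 0.0154, adjusted 0.123). Without NLC replicate 4 and KO replicate 1, the libraries farthest from the median score, r was 0.88 (exact permutation p = 0.0208, n = 6). Without NLC replicate 4 alone r was 0.85 and no member passed after adjustment. Centred within each genotype, r was 0.89. With the atrial score as a term beside sex, the KO against NLC log2 fold change of Tbx5 was 0.00 (adjusted p = 0.996).

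The other members did not pass this test (adjusted exact permutation p 0.259 to 0.671). Tbx20 had r = 0.68 and rho = 0.74, and r = 0.27 without the 2 farthest libraries. Its r was 0.55 without KO replicate 1 alone and 0.54 without NLC replicate 4 alone, so its size depends on the libraries kept. Without NLC replicate 3 Tbx20 passed beside Tbx5 (r = 0.87). Gata6 had r = 0.55 and rho = 0.57, with 0.54 without the 2 farthest libraries and 0.26 without NLC replicate 4. Nr2f2 had r = 0.48 and rho = 0.07, and r = -0.27 without NLC replicate 4. Irx4 had r = -0.18, with 0.68 without the 2 farthest libraries and -0.83 without NLC replicate 3. Nkx2-5 had r = -0.36, with 0.31 without the 2 farthest libraries. With the atrial score as a term, the log2 fold changes of Nkx2-5 and Irx4 were 0.38 (adjusted p = 0.261) and 0.21 (adjusted p = 0.313).

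**Figure D3:**
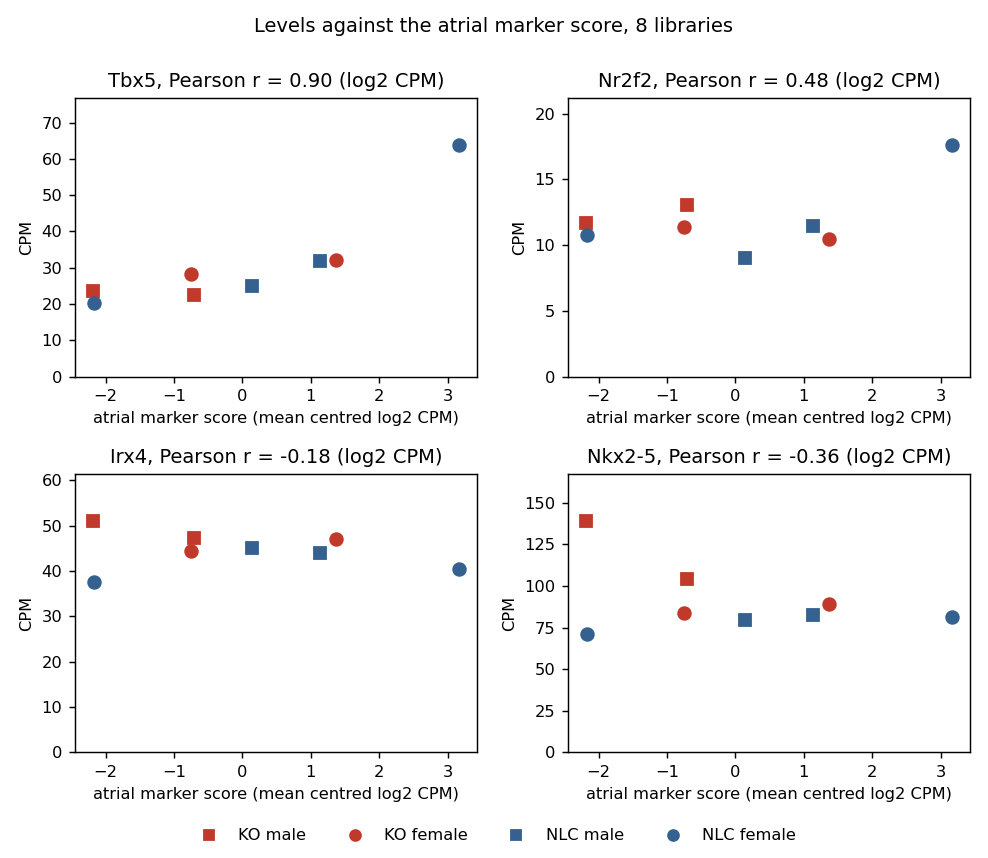
CPM of Tbx5, Nr2f2, Irx4 and Nkx2-5 (vertical, from 0) against the atrial marker score (horizontal) in 8 libraries, KO in red and NLC in blue, males as squares and females as circles. Tbx5 increases with the score (r = 0.90), Nr2f2 is high in NLC replicate 4 alone, and the highest Nkx2-5 is KO replicate 1, at the low end of the score.

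The genotypes were also compared within each sex. Within males edgeR called 0 members (0.0408% of all genes were called). At an unadjusted p under 0.05 there were 2, both positive, beside 17.5% of all genes (9.01% positive and 8.45% negative). Nkx2-5 had a male log2 fold change of 0.59 (SE 0.133, edgeR adjusted p = 0.156), an estimate that DESeq2 called (0.59, SE 0.144, adjusted p = 0.00684), as did edgeR without the low count filter (adjusted p = 7.16e-05). In all, DESeq2 called 314 of 14695 genes within males and edgeR without the filter 1007 of 27953. Hand2 had 0.36 (SE 0.12, edgeR adjusted p = 0.205), from 64.11 and 57.1 CPM in KO males and 43.07 and 51.56 CPM in NLC males.

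Within females edgeR also called 0 members, and 0% of all genes. Irx4, at 0.23 (SE 0.0912, edgeR adjusted p = 0.969), was the 1 member with an unadjusted p under 0.05, beside 5.12% of all genes (2.14% positive and 2.99% negative). Nkx2-5 was at 0.18, Hand2 at -0.02 and Nr2f2 at -0.38. Tbx5 was at -0.48, and without NLC replicate 3 it was called at -1.08 (SE 0.153, edgeR adjusted p = 0.0346), a fit in which NLC replicate 4 is the only female control and 39 genes were called in all. It was also called in females by edgeR without the low count filter (-0.47, adjusted p = 0.0326), among 277 of 27953 genes.

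The genotype effect in males minus that in females was tested in the same edgeR fit, which called 0 members and 0% of all genes. The count of members with an unadjusted p under 0.05 was 0, beside 7.46% of all genes (4.29% positive and 3.16% negative), and DESeq2 called 0 too. The largest differences, male minus female, were 0.65 for Nr2f2 (SE 0.308), 0.41 for Nkx2-5 (SE 0.188) and 0.38 for Hand2 (SE 0.169), each with an edgeR adjusted p of 0.648. No difference between males and females in the genotype effect was thus shown for the 8 factors.

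**Figure D4:**
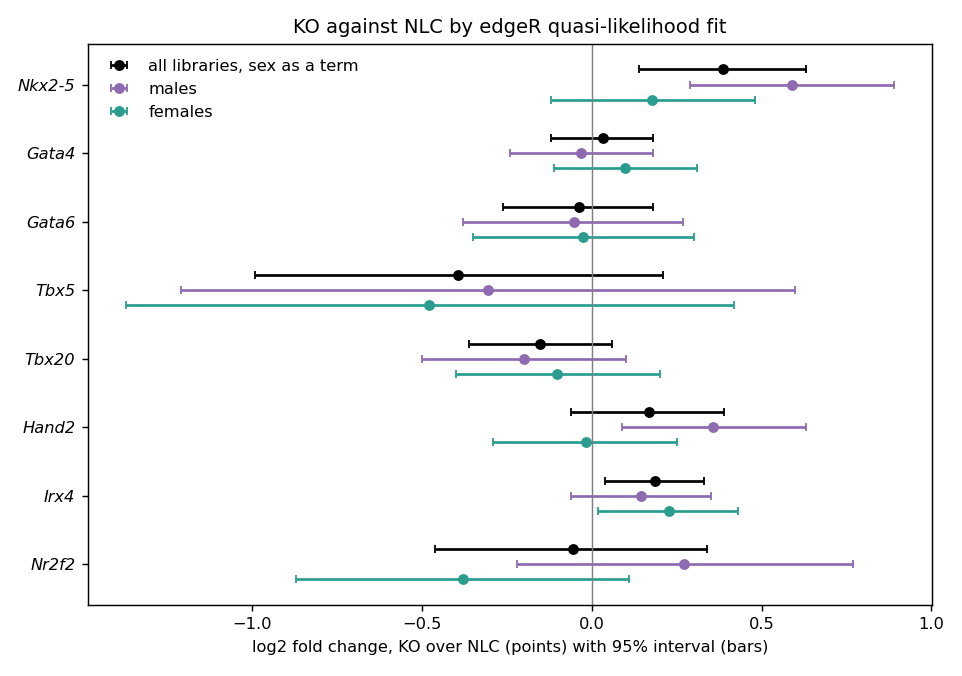
Log2 fold change of KO over NLC (points) with 95% intervals (bars) from edgeR for 8 factors, over all libraries (black), within males (purple) and within females (green). The intervals of Nkx2-5 (0.14 to 0.63) and Irx4 (0.04 to 0.33) over all libraries lie above 0, and those of Tbx5 and Nr2f2 are the widest.

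Males and females were compared across genotypes, and edgeR called 0 members, where 0.299% of all genes were called. At an unadjusted p under 0.05, 3 factors were positive in males over females, beside 12.8% of all genes in either direction (6.79% positive and 6.04% negative). These were Nkx2-5 (log2 fold change 0.30, SE 0.112, edgeR adjusted p = 0.321), Gata4 (0.17, SE 0.0681, adjusted p = 0.344) and Irx4 (0.15, SE 0.0648, adjusted p = 0.375). Tbx5 was at -0.49 (SE 0.271, adjusted p = 0.477). Without the low count filter edgeR called Nkx2-5 (0.29, adjusted p = 0.0377) and Tbx5 (-0.49, adjusted p = 6.53e-05), among 742 of 27953 genes.

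Among themselves the factors did not vary as a block. Of 28 pairs, 0 passed after adjustment for their Pearson correlation over 8 libraries. The values were not centred within genotype or sex, so differences between those groups enter the correlations. The smallest p belonged to Nkx2-5 and Irx4 (r = 0.84, rho = 0.86, exact permutation p = 0.00769 and 0.0107, adjusted 0.215 for each measure), and r was 0.86 without the 2 libraries farthest from the median of Nkx2-5. Gata6 and Tbx5 followed (r = 0.74, rho = 0.83, exact permutation p = 0.026 and 0.0154, adjusted 0.337 and 0.215).

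Genes whose pattern was most like each factor were searched among 9903 others with a mean of at least 5 CPM, by Pearson's r of log2 CPM over 8 libraries. Such a search picks the highest of many values, and the r is given as a description. Nkx2-5 was most like Aes (r = 0.986) and Ube2g2 (0.98), and 90 genes exceeded r = 0.9 with it. Irx4 was most like Atp6v1e1 (0.976) and Acox3 (0.948). Tbx5 was most like Prkag2 (0.979) and Sbk3 (0.975), and Tbx20 most like Desi2 (0.992) and Camsap2 (0.987), with 105 genes over r = 0.9. Gata4 was most like Eef2k (0.983) and Tspan15 (0.946), Gata6 most like Rcn2 (0.959) and Tm9sf1 (0.937), and Hand2 most like Zc3h12a and Ccnd3 (0.938 each). For Nr2f2 the nearest was Prpsap2 (0.929), which had r = 0.41 without the 2 libraries farthest from its median.

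Related family members were measured beside them from a list of 21 GATA, T-box, Iroquois, NKX2 and NR2F genes. Of these, 15 passed the filter and 0 were called in either direction, with a median log2 fold change of 0.03. At an unadjusted p under 0.05, 1 was positive and 0 negative, where 5.77% of all genes were positive and 6.18% negative. Nr2f6, an orphan nuclear receptor, averaged 62.6 ± 10.8 CPM in KO and 54.9 ± 4.23 CPM in NLC (log2 fold change 0.18, edgeR adjusted p = 0.413). Irx1 averaged 10 ± 1.57 CPM in KO and 7.71 ± 3.5 CPM in NLC (0.43, adjusted p = 0.436). The epicardial factor Tbx18 was at -0.31 and Tbx2, a repressor of chamber genes, at 0.15. Nkx2-6 had no read in any library.

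Partners and other cardiac regulators formed a list of 40 genes, of which 38 were tested and 0 called, with a median log2 fold change of -0.01. At an unadjusted p under 0.05, 3 were positive and 3 negative, beside 11.9% of all genes in either direction. Smarcd3 (BAF60c), the chromatin remodelling subunit that links Gata4, Nkx2-5 and Tbx5 to their enhancers, had the smallest p. It stood at 84.55, 76.57, 84.58 and 76.88 CPM in KO and at 69.08, 60.58, 62.04 and 71.41 CPM in NLC. The groups did not overlap (as in 6.25% of all genes), with a log2 difference of 0.29 (SE 0.075, adjusted p = 0.218 by edgeR). Hopx, a homeodomain partner of serum response factor, was at 0.36 (SE 0.116, adjusted p = 0.32), with KO replicate 2 (239.7 CPM) just below NLC replicate 1 (243.6 CPM). Tcf12, which encodes a basic helix-loop-helix partner of the Hand class, was at -0.23 (SE 0.0729), and Mef2c, a MADS box activator, at -0.26 (SE 0.0954).

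Reported targets of the factors were followed in a list of 27 genes, of which 26 were tested and 0 called. At an unadjusted p under 0.05, 1 was positive and 3 negative, again beside 11.9% of all genes. Kcnd2, the transient outward potassium channel gene controlled by Iroquois factors in mice, averaged 10.1 ± 2.47 CPM in KO and 15.7 ± 3.13 CPM in NLC (log2 fold change -0.64, SE 0.188, edgeR adjusted p = 0.287). Tnnc1, cardiac troponin C and a GATA target, averaged 3140 ± 285 CPM in KO and 2600 ± 276 CPM in NLC (0.27, SE 0.0985, adjusted p = 0.35), with groups that did not overlap, as in 6.25% of all genes. Atp2a2, the calcium pump gene, was at -0.27 (SE 0.102), and Adora2a, an adenosine receptor gene, at -0.25 (SE 0.0905). The median of the list was -0.01, beside -0.005 for all genes.

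Other cell types were checked for levels that move with the groups. Endocardial markers (3 genes) summed to 36.56 to 47.43 CPM in KO and 47.74 to 79.88 CPM in NLC, and the venous and lymphatic endothelial list (8 genes) to 237.3 to 255.9 CPM in KO and 266.4 to 289.7 CPM in NLC, so these sums did not overlap. The endocardial gap was narrow, between 47.43 CPM in KO and 47.74 CPM in NLC. The highest endocardial sum, 79.88 CPM, was that of NLC replicate 4, beside 47.74 to 55.48 CPM in the other NLC libraries. Of the endocardial genes, Plvap (-0.66) and Npr3 (-0.55) overlapped between the groups and were highest in that library (28.29 and 30.88 CPM). Nfatc1 (-0.16) had every KO library below NLC. Of the 7 venous and lymphatic genes tested, Vwf was at -0.30 with every KO library below NLC, and Aplnr at -0.39. Flt4 was at 0.08 with every KO library above NLC, and the median was -0.07. General endothelial markers (6 genes) summed to 753.6 to 843.5 CPM in KO and 790 to 974.5 CPM in NLC. Of these genes 0 were called and 3 were negative at an unadjusted p under 0.05, beside 6.18% of all genes. Among them Emcn (-0.29, edgeR adjusted p = 0.212) and Pecam1 (-0.23, edgeR adjusted p = 0.302) had every KO library below NLC. Of all genes tested, 3.03% had every KO library below NLC and 3.22% every KO library above. Nr2f2, which venous and lymphatic endothelial cells make, did overlap, and the part of these cells in its level was not tested. Fibroblast markers (7 genes) summed to 785.8 to 1052 CPM in KO and 860.6 to 1019 CPM in NLC. Conduction markers (6 genes) summed to 74.84 to 111 CPM in KO and 54.38 to 125.5 CPM in NLC.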

How the data were processed

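Total RNA of 8 left ventricles was made into stranded mRNA libraries, per the labels' protocols, and 26.59 to 39.62 M gene reads per KO library and 25.33 to 28.35 M per NLC library were counted. The authors deposited raw read counts per gene, and STAR, HTSeq, DESeq2 and the build GRCm38 are named per the submitters' processing notes; the sources used here give no versions, annotation release or strand setting. Summary entries that name no gene (16.8% to 20.3% of tallied reads multiply mapped, 3.07% to 4.08% outside genes, 1.26% to 1.38% ambiguous) entered neither library sizes nor tests. Symbols and positions came from GENCODE M21, in which 55227 of 55487 identifiers had a symbol.

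Counts were fitted in R 4.3.3 with edgeR 4.0.16 (filterByExpr by genotype, 14695 genes, TMM scaling, glmQLFit and glmQLFTest with sex as a term; a fit with a mean per sex and genotype for the contrasts within the sexes and their difference). P-values were adjusted over all genes by the Benjamini-Hochberg method at 0.05, and log2 CPM used a prior count of 2. CPM used TMM-scaled library sizes, RPKM merged exon lengths, and TPM the library's sum of length-scaled counts. Alternatives used DESeq2 1.42.0 and limma 3.58.1, other scalings and filters, a replicate block, an atrial score term and each library left out.

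Named genes were the 9 members, up to 4 genes per described list with the smallest p, and the 2 genes most like each member, of which 1 is not reported here. The members and lists were chosen with earlier results of these data known. The series' design text calls the samples biological replicates. No pair of libraries of a group agreed within sampling noise (chi-square per degree of freedom 14.2 to 38.5).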

Additional observations from a re-analysis of the deposited data

Results flagged for a closer look

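In 52 groups of 4 values checked, 4 held a library far from the other 3, where chance alone marks about 1 group in 20. Hand1 stood at 0.1037 CPM in NLC replicate 4, from 3 reads, with 0 reads in the other NLC libraries. Beside equal values of 0 any reading above 0 is flagged, so the rate of 1 in 20 does not apply to Hand1. The summed atrial markers stood at 6348 CPM and the summed epicardial markers at 35.27 CPM in the same library. The depth of KO replicate 1, at 39.62 M gene reads, lay apart from the other KO libraries (26.59 to 28.81 M).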

How the results depend on the processing

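Over 152 refits of single members for KO against NLC, 140 kept the direction and the side of the threshold, 10 turned the direction and 2 gained a call. Without the low count filter 2 members were called for KO against NLC, 2 for males against females, 1 within males and 1 within females. These fits tested 27953 genes and called 621, 742, 1007 and 277 of them, in that order. DESeq2 called 1 member within males, among 314 genes. The count of members called with a library left out was 0 for KO against NLC, 0 within males and for the sex comparisons, and 0 to 1 within females. The log2 fold changes then ranged from -0.02 to 0.07 for Gata4, -0.10 to 0.02 for Gata6, -0.63 to 0.03 for Tbx5, -0.19 to 0.17 for Nr2f2 and 0.25 to 0.46 for Nkx2-5. Gata4 was 0.00 by limma on TPM, and with the atrial score as a term Gata6 was 0.01 and Nr2f2 0.06; the causes of these turns were not tested. The number of members that followed the atrial score ranged from 0 to 2 with a library left out. Those r values ranged from -0.36 to 0.42 for Gata4, -0.71 to 0.12 for Nkx2-5, -0.83 to 0.15 for Irx4 and -0.27 to 0.60 for Nr2f2, and Irx4 had 0.09 centred within genotype. The exact permutation test passed 1 member, and 2 on the TPM scale (an alternative chosen after seeing the data). It passed 0 to 1 with a library left out (0 without NLC replicate 2, 3 or 4), where fewer assignments remain. In the order of levels, 6 of 8 neighbours kept their place in every library, 4 with the longest coding transcript as length, and 6 to 7 with a library left out. With the replicate number as a block 0 members were called and no direction changed. The numbers only share a label: same-numbered libraries correlated at -0.208 to 0.246 in their deviations from the genotype means, and not every library correlated best with its own number. Depth limits Hand1 alone.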
